A study of Mus musculus with 10 samples.

Results

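Transcription factors that direct the formation of mesoderm and endoderm were examined in cells of neuroectodermal origin. The set held 56 genes, listed by name, out of 21883 protein-coding mouse genes with a position. A gene's window was its annotated body plus 5 kb either side, and all peaks of each mark that touched the window were taken. The cells were neural stem and progenitor cells grown from E13.5 mouse forebrain (E13.5 is the embryonic day) with epidermal and fibroblast growth factor in the medium. One group received crotonate at 10 mM, a short fatty acid from which cells make the donor for histone crotonylation, for 24 h, and the control group received water for the same time. No genetic change or strain is named, both groups share the culture medium and growth factors, and the labels do not say how many embryos or cultures went into a library. Native chromatin immunoprecipitation (without crosslinking) followed by sequencing gave 1 peak list per mark and treatment, 8 lists in all, for H3K4me3, H3K9cr, H3K27ac and H3K27me3.

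H3K27me3 is the mark that Polycomb repressive complexes place on genes that a lineage does not use, and in neural cells the regulators of other germ layers are among its best known carriers. H3K4me3 is found at CpG-rich promoters, and together with H3K27me3 it marks the promoters called bivalent, which are held silent but can be induced. H3K27ac marks active promoters and enhancers, and H3K9cr, a crotonylation, is known mostly from active promoters. The 56 genes fall into 7 roles. They act in the primitive streak and somites (5 genes), the heart (12), blood and endothelium (7), endoderm and gut (7), skeletal muscle (4), mesenchyme, limb and skeleton (15), and visceral and urogenital mesoderm (6).

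Since each list came from 1 library, no difference given here has a replicate check or a test. A mark is called gained where a gene's window held a peak in the crotonate list and none in the control list, and lost in the opposite case, so both words describe the lists. The crotonate and control lists held 18001 and 17322 H3K4me3 peaks, 32666 and 31905 H3K9cr peaks, 59868 and 52922 H3K27ac peaks, and 34707 and 26031 H3K27me3 peaks. Read depth is unknown. The lowest background that any peak of a list implies, a stand-in for it, was between 0.857 and 0.992 times as high in crotonate as in control. Summit pileups, the heights of stacked fragments, are the authors' own values and rank peaks within a list only. The antibody catalogue numbers were alike in both treatments, while the labels name different vendors in the 2 treatments for H3K4me3 and for H3K27me3, and for the other marks name one in control only. The part of depth or antibody in the differences was not tested. The cells carried H3K4me3 and H3K27ac at 11 of 11 neural stem and progenitor markers in both treatments. H3K4me3 lay at 1 of 5 endoderm markers and 1 of 5 muscle markers in both treatments (Cldn6 and Acta1), and of 7 endothelial markers at 2 in crotonate (Kdr and Pecam1) and 1 in control (Kdr). Of 10 pericyte and meningeal fibroblast markers, H3K4me3 lay at 5 in crotonate and 6 in control. At the 5 with it in both treatments its cover was longer in crotonate, by a median ratio of 1.43. Of 8 microglia and blood markers it lay at 3 in both treatments. H3K27ac lay at 4 of 5 muscle markers and 5 of 8 microglia and blood markers in both treatments, at 5 of 7 endothelial markers in crotonate and 3 in control, and at 5 of 10 pericyte and fibroblast markers in crotonate and 3 in control. The part of such cells in the results was not tested.

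Of the 56 members, 33 had a promoter sequence in the RefSeq table of GRCm38.p6, 250 bases before to 50 bases after an annotated start, with 40 starts in all. Those of 6 members are shown. Foxa2 and Tbx20 are shown because their promoters carried H3K4me3 in the crotonate list and not in the control list. Gata3, Runx1, Gata2 and Tbx4 are shown because they had the longest H3K27me3 cover in control among members whose promoter could be printed, and Tbx4 among them had no H3K4me3 in either treatment. The regions are chr2:148045899-148046198 (minus strand) for Foxa2, chr9:24774254-24774553 (minus) for Tbx20, chr6:88193641-88193940 (plus) for Gata2, chr2:9878551-9878850 (minus) for Gata3, chr16:92697280-92697579 (minus) for Runx1 and chr11:85896515-85896814 (plus) for Tbx4. Each is written 5′ to 3′ with CpG dinucleotides in capitals.
Foxa2: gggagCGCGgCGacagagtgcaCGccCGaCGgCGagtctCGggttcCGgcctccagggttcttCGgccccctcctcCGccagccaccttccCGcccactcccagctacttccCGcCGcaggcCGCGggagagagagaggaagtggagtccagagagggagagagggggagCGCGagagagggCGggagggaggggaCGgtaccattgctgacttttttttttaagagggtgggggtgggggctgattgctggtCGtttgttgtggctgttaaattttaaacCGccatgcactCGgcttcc
Tbx20: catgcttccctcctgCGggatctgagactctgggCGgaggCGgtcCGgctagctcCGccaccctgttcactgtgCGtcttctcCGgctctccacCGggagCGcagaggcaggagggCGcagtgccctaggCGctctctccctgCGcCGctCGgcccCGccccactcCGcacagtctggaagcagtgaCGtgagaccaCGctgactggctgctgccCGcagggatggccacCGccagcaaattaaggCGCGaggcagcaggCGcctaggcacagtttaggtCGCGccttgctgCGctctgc
Gata2: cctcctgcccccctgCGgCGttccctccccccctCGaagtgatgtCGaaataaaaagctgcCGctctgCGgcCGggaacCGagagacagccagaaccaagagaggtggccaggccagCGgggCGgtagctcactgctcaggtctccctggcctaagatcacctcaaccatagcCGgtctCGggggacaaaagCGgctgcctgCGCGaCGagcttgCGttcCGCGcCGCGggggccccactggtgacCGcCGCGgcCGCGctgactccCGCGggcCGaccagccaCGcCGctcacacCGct
Gata3: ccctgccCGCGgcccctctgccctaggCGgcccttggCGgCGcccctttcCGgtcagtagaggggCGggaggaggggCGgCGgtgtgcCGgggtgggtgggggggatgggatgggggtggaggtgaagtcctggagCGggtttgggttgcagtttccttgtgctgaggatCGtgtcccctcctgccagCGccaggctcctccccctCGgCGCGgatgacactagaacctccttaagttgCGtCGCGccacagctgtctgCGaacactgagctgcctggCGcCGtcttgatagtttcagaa
Runx1: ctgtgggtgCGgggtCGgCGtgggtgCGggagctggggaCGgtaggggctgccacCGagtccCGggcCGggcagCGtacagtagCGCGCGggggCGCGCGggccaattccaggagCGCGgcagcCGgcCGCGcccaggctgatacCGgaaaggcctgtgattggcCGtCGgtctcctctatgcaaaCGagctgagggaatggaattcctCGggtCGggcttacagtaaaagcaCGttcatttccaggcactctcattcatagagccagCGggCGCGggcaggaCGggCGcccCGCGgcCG
Tbx4: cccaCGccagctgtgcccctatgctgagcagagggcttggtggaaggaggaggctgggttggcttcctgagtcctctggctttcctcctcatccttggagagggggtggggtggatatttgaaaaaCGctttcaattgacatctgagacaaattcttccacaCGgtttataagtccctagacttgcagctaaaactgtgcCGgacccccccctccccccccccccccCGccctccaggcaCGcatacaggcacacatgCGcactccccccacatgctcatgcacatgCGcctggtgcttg

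The Foxa2, Tbx20, Gata2, Gata3 and Runx1 windows shown held 23, 26, 32, 22 and 35 CpG in 300 bases, in that order, and the Tbx4 window held 8. Over the 40 members' promoters the median was 20 CpG, with a range of 2 to 50, against a median of 13 over 21262 promoters of all genes. The ratio of observed to expected CpG was at least 0.6 at 65% of the members' promoters and at 47.7% of all promoters. Among members, the 21 promoters with both H3K27me3 and H3K4me3 in crotonate had a median of 26 CpG (range 11 to 50), the 11 with H3K27me3 alone a median of 12 (4 to 26), and the 8 without H3K27me3 a median of 4 (2 to 9). Over all genes the medians of these 3 classes were 21, 7 and 12 CpG. In the members as elsewhere, promoters with both marks were richest in CpG. Both strands were searched for 4 short motifs. The E-box of helix-loop-helix factors, CANNTG, was in 62.5% of the members' promoters and 69% of all. The GATA site, written here as AGATAA, was in 5 of the 40 members' promoters (12.5%) and 9.65% of all. The TATA box, TATAAA, was in 7 of the members' promoters (17.5%) and 12.6% of all. The T-box site, AGGTGTGA, was in 1 of the members' promoters (2.5%) and 1.15% of all. These counts are too small to compare the shares. Matches of different motifs may share bases, and a match describes the letters only.

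Most of these genes sat inside long H3K27me3 domains in both treatments. H3K27me3 was present at 53 members in crotonate and 51 in control, where 34.7% of all genes had it in crotonate and 33.8% in control. At least 10 kb of the window was covered at 43 members in crotonate, against 4.09% of all genes, and at 42 members in control, against 3.85% of all genes. The whole window lay under H3K27me3 at 18 members in crotonate and 16 in control, and the median share of a window covered was 69.1% in crotonate and 65.4% in control. The median of the longest peak per member was 21503 bp in crotonate and 21675 bp in control. Hand2, a helix-loop-helix factor of the heart and limb, lay in the longest single domain, 56501 bp in crotonate and 54410 bp in control. Foxa2, the forkhead factor of endoderm, node and floor plate, lay in one of 44850 bp in crotonate and 42819 bp in control. The longest cover within a window was that of Gata4, a zinc-finger factor of heart and endoderm, with 59781 bp in crotonate and 55161 bp in control. Tbx5, needed for heart and forelimb, followed with 50362 bp in crotonate and 45273 bp in control, and Tbx15, a factor of the skeleton and skin, with 40772 bp in crotonate and 36950 bp in control. Myf5 and Myf6, muscle determination factors whose windows overlap, and Tbx6, needed for paraxial mesoderm, had no H3K27me3 in either treatment, and Hnf4a and Myog had none in control. Mesp2 had 1474 bp in crotonate and 283 bp in control.

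**Figure D1:**
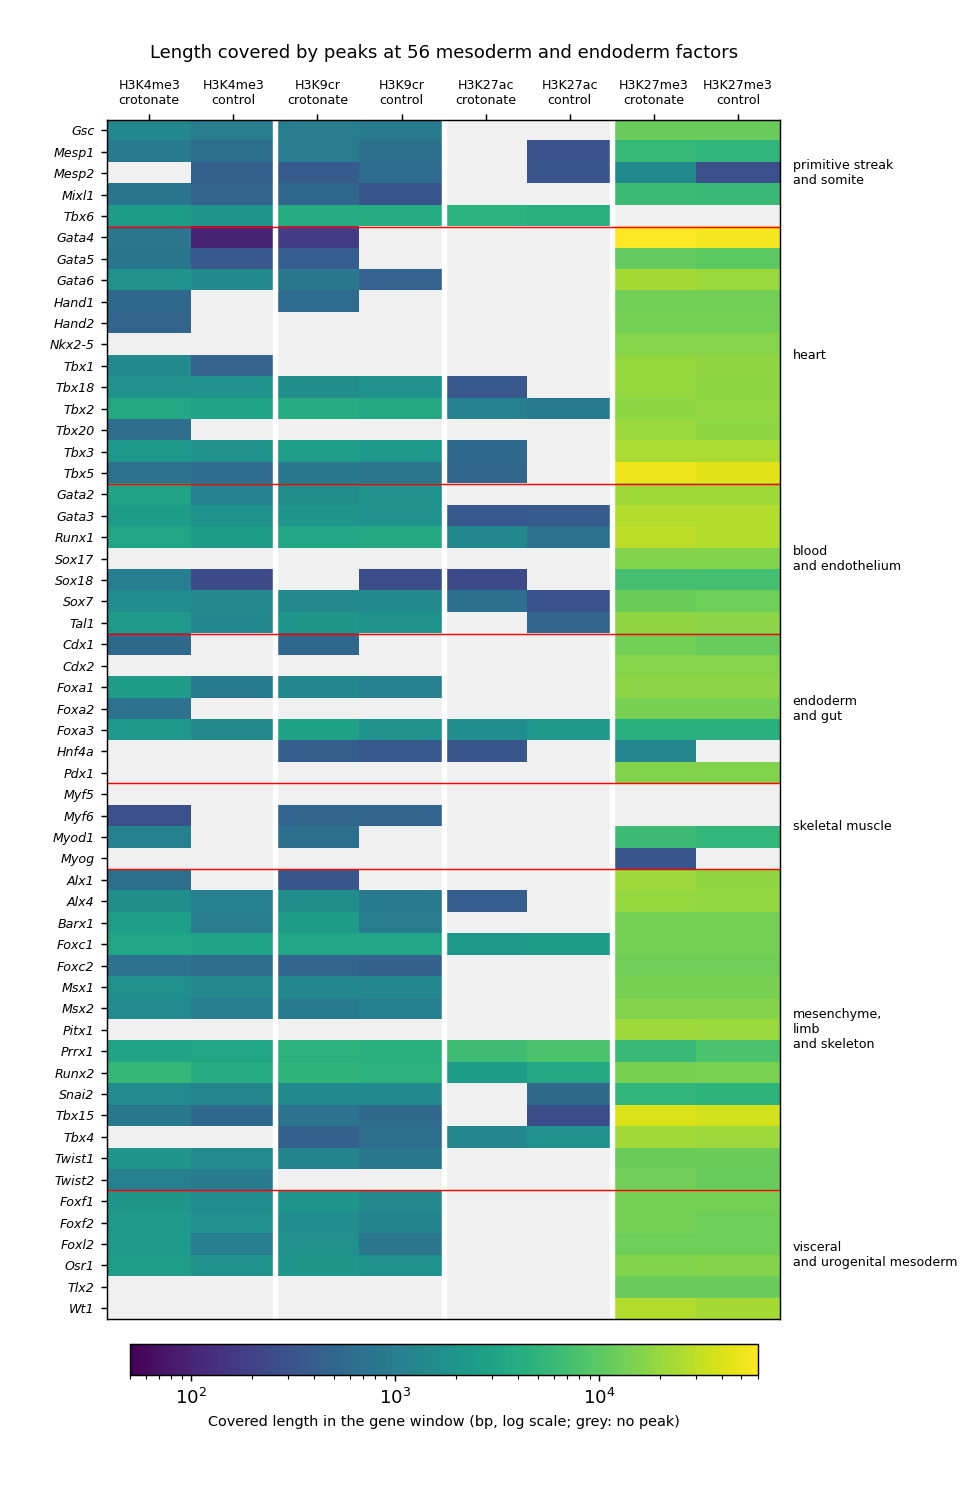
Length covered by peaks of each mark (bp, log colour scale, grey where no peak touched the window) at the 56 genes, one row per gene in 7 roles, with crotonate left of control for each mark. H3K27me3 covers at least 10 kb of 43 genes in crotonate and 42 in control, while H3K27ac is present at 16 in crotonate and 15 in control.

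No member lost H3K27me3 from its window, where 3.84% of all genes, or 11.4% of genes that had it in control, did. All 843 genes with at least 10 kb of it in control, 530 with H3K27ac and 313 without, kept it too. H3K27me3 was gained at 2 members, against 4.74% of all genes, and at none with 20 kb flanks. Within 1 kb of the known start sites 1 member gained it, which was neither of these 2. Myog, the factor of muscle differentiation, gained it through 320 bp of a 3870-bp peak that was present in both lists, 4681 bp above the gene's upper end, in a window that also holds Ppfia4. Hnf4a, a nuclear receptor of liver and gut, gained 3 narrow peaks with pileups of 10, 12 and 14. Summed over the windows, covered length was 875 kb in crotonate and 835 kb in control, a ratio of 1.05, and the ratio over all genes was 1.04. Of the 51 members with the mark in both treatments, 26 had a longer cover in crotonate, 9 a shorter one and 16 an equal one, where 49.2% of all such genes were longer and 48.9% shorter. Cover grew by at least 1.5-fold at 1 member, Mesp2, against 14.7% of all such genes. It shrank by that much at none, against 17.1%. Cover does not record the height of a peak. The median of the highest H3K27me3 pileup at these 51 members was 485 in crotonate and 740 in control. At the 772 genes with at least 10 kb of H3K27me3 in both treatments it was 256 in crotonate and 425 in control. Each list has its own scale, and whether the height changed was not tested.

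New H3K27me3 peaks at the members were narrow, as they were elsewhere. Of the 162 H3K27me3 peaks at members in crotonate, 58 (35.8%, exact 95% interval 28.4 to 43.7) had no overlap with a control peak, close to the 38.4% over all gene windows. They had a median width of 381 bp and pileups of 9 to 20, and 43 of the 58 (74.1%) lay within 5 kb of a control peak. Over all gene windows the median width of such peaks was 375 bp and 61.8% lay within 5 kb of a control peak, and at genes with at least 10 kb of H3K27me3 in control 76% did. Of the 103 control peaks at members, 9 (8.74%, 4.07 to 15.9) had no partner in crotonate, where 26.2% did over all gene windows. Runx1, which starts blood stem cell formation, had 7 such new peaks and Tbx5 had 5. The windows with the largest increase were those of Tbx5, Gata4, Tbx15, Wt1, the factor of kidney and gonad (26531 bp in crotonate, 23245 bp in control), and Runx1 (29364 bp in crotonate, 26156 bp in control).

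Fewer members had a shorter H3K27me3 cover in crotonate than had a longer one. Prrx1, a homeobox gene of limb mesenchyme, had 6030 bp in crotonate and 7965 bp in control, and its longest peak measured 2332 bp in crotonate and 7965 bp in control. Tbx2, which patterns heart and limb, had 17814 bp in crotonate and 18985 bp in control. The longest peak at Foxc1, a forkhead factor of mesenchyme and somites, was 9145 bp in crotonate and 16963 bp in control, and that at Runx2, the factor of bone formation, was 7681 bp in crotonate and 12573 bp in control. Their cover differed less. Foxc1 had 13573 bp in 2 peaks in crotonate and 13779 bp in 1 peak in control. Runx2 had 14109 bp in 5 peaks in crotonate and 14535 bp in 2 peaks in control. Of the 14 members with H3K27ac in control and H3K27me3 in both treatments, 6 had a shorter H3K27me3 cover in crotonate (Foxa3, Foxc1, Prrx1, Runx2, Sox7 and Tbx2), and of the 37 without H3K27ac, 3 did (Gata2, Osr1 and Sox17). The difference was slight at Foxa3 (4516 bp in crotonate, 4528 bp in control), Gata2 (21729 bp and 21761 bp) and Sox17 (15558 bp and 15562 bp). The H3K27ac peaks at Foxa3 lay off the gene body, in a window that also holds Sympk. Over all genes with at least 10 kb of H3K27me3 in control, 48.3% with H3K27ac and 14.1% without had a shorter cover. The members resembled that class. A window covered in full in both treatments cannot show a change of cover. Cover was equal at 16 of the 37 members without H3K27ac, each covered in full, and at 0 of the 14 with it. In the wide class it was equal at 103 of 313 genes without H3K27ac and 19 of 530 with it. The shares with and without H3K27ac are thus not directly comparable.

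**Figure D2:**
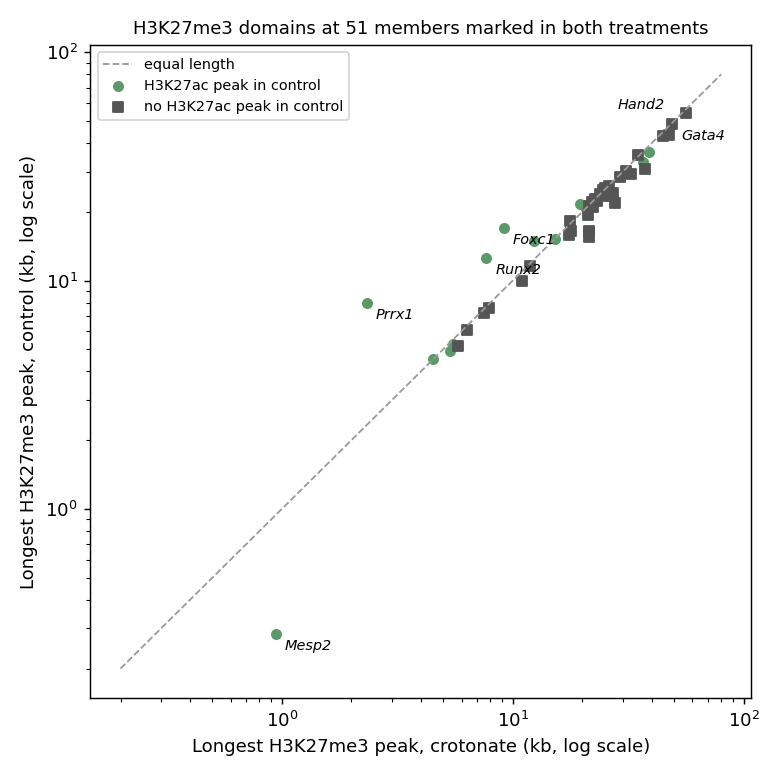
Longest H3K27me3 peak touching each of 51 windows (kb, log axes), crotonate on the horizontal and control on the vertical axis, by whether the window had a H3K27ac peak in control. Points above the dashed line were longer in control, and Prrx1, Foxc1 and Runx2, all with H3K27ac, lie farthest above it. At these genes H3K27me3 was called as more peaks in crotonate than in control, which shortens the longest peak.

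Of the 4 marks, H3K4me3 had the ratio of summed covered length that lay farthest from 1, although in base pairs H3K27me3 differed by more. It was present at 44 members in crotonate and 37 in control, and at 68.1% of all genes in crotonate and 66.8% in control. It was gained at 8 members, 14.3% of them, against 1.59% of all genes. It was lost at 1 member, Mesp2, against 0.256% of all genes. The genes that gained it were Foxa2, Hand1, Hand2, Tbx20, Cdx1, Alx1, Myod1 and Myf6. In 7 of the 8 the new peak overlapped H3K27me3 that was present in both treatments, and Myf6 was the exception. In 6 of the 8 it lay on the gene body. None of the 8 had H3K27ac in crotonate. With the stronger 50% of each list 1 gain was left and no loss. Within 1 kb of the start sites known for 33 members there were 4 gains. Of the 8 genes only Foxa2, Hand2 and Tbx20 have a known start site, so not all of these gains were among the 8.

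The new peaks were short and low, with pileups of 11 to 30, in a list whose median peak had a pileup of 374. Foxa2 had a peak of 715 bp with a pileup of 25 and an enrichment of 6.71-fold over local background in crotonate, and none in control. It overlapped the promoter printed above. Tbx20, a T-box factor of the heart, had one of 624 bp with a pileup of 20 in crotonate, across its promoter, and none in control. Both sat in Polycomb domains that covered the promoter in both treatments.

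Hand1, which acts in heart and extraembryonic mesoderm, had a peak of 546 bp with a pileup of 24 in crotonate, 551 bp below the gene's lower end, and none in control. Hand2 had the weakest of the new peaks, 502 bp with a pileup of 11, on the gene body. Alx1, a homeobox gene of craniofacial mesenchyme, had one of 642 bp with a pileup of 21 on its body. Cdx1, a homeobox gene of the hindgut, had a peak of 631 bp with a pileup of 30. It lay 4424 bp below the gene's lower end, in a window that also holds Slc6a7 and Gm52351, so the peak cannot be assigned to Cdx1 alone.

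Myod1, which can turn other cells into muscle, had a peak of 1116 bp with a pileup of 21 on its body in crotonate, and none in control. Its H3K27me3 domain measured 5793 bp in crotonate and 5194 bp in control. Myf6 had a peak of 281 bp with a pileup of 16 in crotonate, where a H3K9cr peak was present in both treatments. The only loss, at Mesp2, a somite segmentation factor, was of a control peak of 437 bp with a pileup of 19 on the gene body. At the same gene a H3K27ac peak of 321 bp was found in control only, and its H3K9cr cover was 383 bp in crotonate and 601 bp in control.

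**Figure D3:**
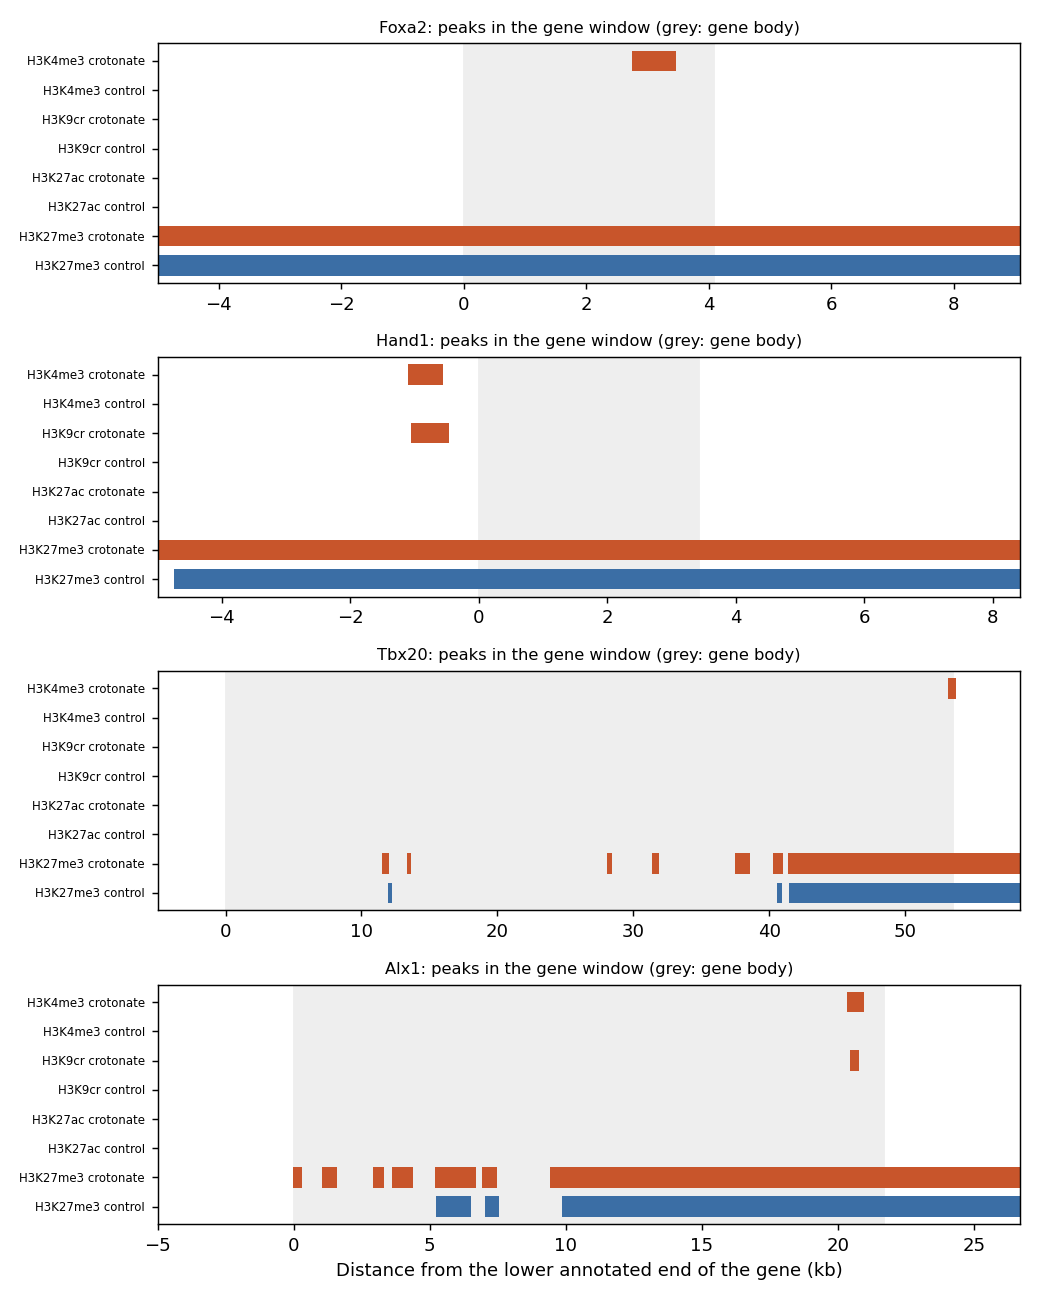
Peaks of all 8 lists in the windows of Foxa2, Hand1, Tbx20 and Alx1, by distance from the lower annotated end of the gene (kb), crotonate in orange above control in blue. At each gene a H3K4me3 peak of 546 to 715 bp is present in crotonate only, inside H3K27me3 that is present in both treatments.

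The gains at members were about as frequent as at other genes under similar Polycomb cover. Of the 15 members with H3K27me3 and no H3K4me3 in control, 7 gained H3K4me3 (46.7%), against 23.9% of all genes in that state. With at least 10 kb of H3K27me3 the numbers were 6 of 14 members (42.9%) and 46.2% of all genes. Of genes with neither mark in control 1.54% gained it, and of the 4 members in that state Myf6 did. Members that had at least 10 kb of H3K27me3 and H3K4me3 in neither treatment were Sox17, Wt1, Pdx1, Cdx2, Tlx2, Nkx2-5, Pitx1 and Tbx4. Pdx1, which specifies the pancreas, and Nkx2-5, which specifies heart muscle, had windows covered in full by H3K27me3 in both treatments, 15752 bp and 16325 bp.

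Where H3K4me3 was present in both treatments, its cover was mostly longer in crotonate. Of the 36 members with it in both treatments, 35 had a longer cover in crotonate, where 69.2% of all such genes did, and Prrx1 alone had a shorter one, 3160 bp in crotonate and 3215 bp in control. Its cover was at least 1.5-fold longer at 13 of the 36 (36.1%), against 3.74% of all such genes. With the stronger 50% of each list the count was 1, and it was 8 at 2-fold and 24 at an increase of 25%, all 3 alternatives chosen after seeing the data. It was that much shorter at none, against 0.234%. The summed length was 77.7 kb in crotonate and 51.4 kb in control, a ratio of 1.51, and the ratio over all genes was 1.06. The median ratio per gene was 1.37 in members and 1.03 in all genes. Part of the increase was new peaks. Of the 72 H3K4me3 peaks at members in crotonate, 22 had no partner in control (30.6%, exact 95% interval 20.2 to 42.5), against 5.45% over all gene windows. H3K27me3 was touched by 21 of the 22, much as by 68 of all 72 and by 48 of the 52 in control. Of the 52 control peaks, 2 had no partner in crotonate (3.85%, 0.469 to 13.2), against 1.77%. Of 50 peaks that paired one to one, 46 (92%) were wider in crotonate, with a median ratio of 1.28. Over all gene windows 67.9% of such peaks were wider, with a median ratio of 1.03, and at genes with at least 10 kb of H3K27me3 in control 78.5% were, with a median ratio of 1.11.

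Foxa1, a forkhead factor of endoderm, had 2503 bp of H3K4me3 in crotonate and 918 bp in control. A new peak of 1013 bp lay below the gene, in a window that also holds Ttc6. Gata2, a factor of blood stem cells and endothelium, had 3106 bp in crotonate and 1155 bp in control. Its promoter at the upstream start, printed above, carried a peak of 404 bp in crotonate and none in control. Barx1, a homeobox gene of stomach and tooth mesenchyme, had 2665 bp in crotonate and 1012 bp in control. Foxl2, a forkhead factor of the ovary, had 2348 bp in crotonate and 1037 bp in control. At these 4 genes H3K27me3 covered more than 12 kb in both treatments and H3K27ac had no peak.

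Tbx1, a factor of the pharynx and outflow tract, had 1487 bp in crotonate and 470 bp in control. Gata5, a heart and endoderm factor, had 789 bp in crotonate and 341 bp in control, and Sox18, a factor of vessels, had 1038 bp in crotonate and 254 bp in control. Gata4 had 833 bp in crotonate and 99 bp in control, but the 99 bp were the edge of a shared peak near Neil2. What was new at Gata4 were peaks of 353 bp and 350 bp on the gene body, with pileups of 18 and 28. The other genes at or above 1.5-fold were Alx4, Foxa3, Mixl1, Tal1 and Tbx15, and the threshold fell between Tbx15 (868 bp in crotonate, 570 bp in control) and Msx2 (1540 bp in crotonate, 1029 bp in control). At Foxa3 the control peak lay off the gene body, in a window that also holds Sympk. The longest cover in control was at Runx2, with 5613 bp in crotonate and 4054 bp in control, which also had one of the largest increases. Prrx1, Tbx2 (3559 bp in crotonate, 3155 bp in control), Foxc1 (3207 bp in crotonate, 3124 bp in control) and Runx1 (3252 bp in crotonate, 2408 bp in control) followed it.

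**Figure D4:**
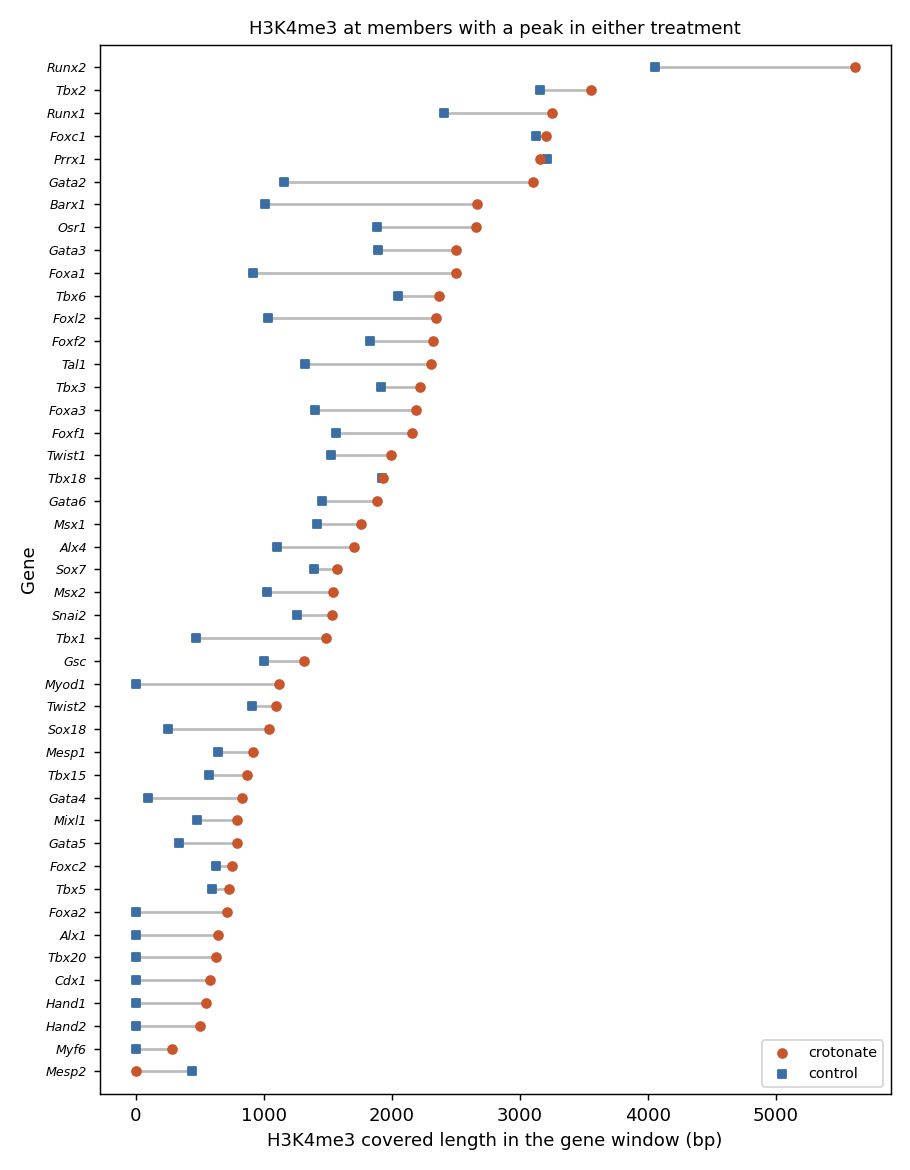
H3K4me3 covered length (bp) in the windows of the 45 members with a peak in either treatment, crotonate as orange circles and control as blue squares, joined by a line and sorted by the crotonate value. The crotonate value is the larger one at all members but Mesp2 and Prrx1.

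Longer H3K4me3 went with H3K27me3 over the genome too. An increase of at least 1.5-fold was found at 1.04% of genes with H3K4me3 in both treatments and H3K27me3 in neither, at 9.04% of genes with overlapping marks in control, and at 20.5% of genes with at least 10 kb of H3K27me3 in control. Of the 28 members in that last class 9 passed it (32.1%) and all 28 were longer, where 85.7% of the class was. Of the 35 members with overlapping marks 13 passed (37.1%) and 34 were longer, where 80.1% of such genes were. At the 3 members with the highest H3K4me3 pileups within each list, Foxa3, Runx2 and Tbx6, the window holds another gene, Sympk, Supt3, and Ypel3 with Ppp4c, in that order.

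H3K4me3 and H3K27me3 peaks overlapped at 42 members in crotonate, against 17.5% of all genes, and at 35 members in control, against 20.1%. The overlap was present in crotonate only at 7 members, against 1.62% of all genes, and in control only at none, against 4.17%. With the stronger 50% of each list the overlap was found at 2 members in crotonate and 1 in control, and within 1 kb of the known start sites at 23 in crotonate and 19 in control. The 7 with it in crotonate only are the genes that gained H3K4me3 within H3K27me3. The overlap was thus more frequent in crotonate than in control at the members, and less frequent over all genes.

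By role, H3K4me3 was gained at 3 of 12 heart factors, 2 of 7 endoderm and gut factors, 2 of 4 muscle factors, 1 of 15 mesenchymal and skeletal factors, and none of the blood and endothelial, visceral and urogenital, or primitive streak and somite factors. The median ratio of covered length at members with H3K4me3 in both treatments was 1.55 for blood and endothelial factors, 1.40 for visceral and urogenital factors, 1.37 for primitive streak and somite factors, 1.28 for mesenchymal and skeletal factors and 1.26 for heart factors. Foxa1 and Foxa3 were the only endoderm factors with it in both, with ratios of 2.73 and 1.56. In control the H3K4me3 peak in the Foxa3 window lay off the gene body, in a window that also holds Sympk. The groups hold 2 to 12 genes each, and their differences were not tested.

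H3K9cr, the mark made from crotonyl-CoA, was present at 41 members in crotonate and 36 in control, and at 70.5% of all genes in crotonate and 69.3% in control. It was gained at 6 members, against 1.83% of all genes, and lost at 1, against 0.64%. Within 1 kb of the known start sites there was 1 gain and no loss. The gains were at Alx1, Cdx1, Hand1 and Myod1, together with H3K4me3, and at Gata4 and Gata5. At Gata4 the peak was present in both lists and only reached the window in crotonate, 4825 bp below the gene. Among the members with new H3K4me3, 7 had lacked H3K9cr in control, and 4 of these (57.1%) gained it too, as did 64.8% of all such genes. The new peaks were low. Hand1 had one of 603 bp with a pileup of 20, Cdx1 one with a pileup of 26, Gata5 418 bp with a pileup of 17, Myod1 679 bp with a pileup of 15 and Alx1 337 bp with a pileup of 15. Sox18 lost a peak of 275 bp with a pileup of 12.

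The summed H3K9cr length was 67.2 kb in crotonate and 56.5 kb in control, a ratio of 1.19, while the ratio over all genes was 0.973. Of 35 members with it in both treatments 26 were longer, against 52.3% of all such genes, and 9 shorter, against 47.6%. It was at least 1.5-fold longer at 6 members, against 3.48% of all such genes, and that much shorter at 1, against 3.36%. Barx1 had 2418 bp in crotonate and 993 bp in control. Foxa3, a forkhead factor of liver and gut, had 3072 bp in crotonate and 1894 bp in control, where no H3K9cr peak lay on the gene body. Foxl2 had 1776 bp in crotonate and 828 bp in control, and Alx4, which patterns limb and skull, had 1693 bp in crotonate and 938 bp in control. Gata6, which acts in primitive endoderm and heart, had 844 bp in crotonate and 471 bp in control, and Mixl1, a primitive streak factor, had 547 bp in crotonate and 315 bp in control. All 6 had also a longer H3K4me3 cover in crotonate. Mesp2 was the gene with the shorter cover. Tbx4 (442 bp in crotonate, 648 bp in control), Gata2 (1675 bp in crotonate, 1841 bp in control) and Tbx6 (3915 bp in crotonate, 4064 bp in control) were the next in order of decrease. At Tbx4 the peaks of the 2 treatments did not overlap. The crotonate peak lay on the gene body and the control peaks lay off it. Of 71 H3K9cr peaks at members in crotonate 17 had no partner in control (23.9%, 14.6 to 35.5), against 14.5% over all gene windows, and of 62 in control 9 had none in crotonate (14.5%, 6.86 to 25.8), against 11.8%.

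At these genes H3K9cr peaks lay mostly with H3K27me3 and seldom with H3K27ac. Of the members' H3K9cr peaks, 84.5% in crotonate and 74.2% in control touched H3K27me3. Of those at all genes, 16.7% in crotonate and 20.8% in control did. H3K27ac was touched by 22.5% in crotonate and 37.1% in control, and at all genes by 82.3% in crotonate and 90.1% in control. H3K4me3 was touched by 84.5% in crotonate and 72.6% in control, and at all genes by 59.6% in crotonate and 60.3% in control. Of the members' H3K4me3 peaks, 94.4% in crotonate and 92.3% in control touched H3K27me3, and 19.4% in crotonate and 28.8% in control touched H3K27ac. The pattern was thus not particular to H3K9cr.

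H3K27ac was rare at the members and moved both ways. It was present at 16 members in crotonate and 15 in control, where 68.5% of all genes had it in crotonate and 67.7% in control. It was gained at 6 members, against 2.5% of all genes, and lost at 5, against 1.72%. The gains were at Tbx3, Tbx5 and Tbx18, T-box factors of the heart, and at Alx4, Sox18 and Hnf4a, with pileups of 11 to 17. The peaks at Hnf4a and Sox18 lay 4303 bp and 4660 bp outside the gene. The losses were at Mesp1 and Mesp2, at Snai2, a repressor that acts in epithelial-to-mesenchymal transition, at Tal1, needed for all blood, and at Tbx15, with pileups of 10 to 18. With the stronger 50% of each list 2 gains and no loss were left. Near the known start sites there was no gain and 3 losses, not all of them among these 5 genes. None of the gained or lost peaks exceeded the median pileup of its list, 17 in crotonate and 23 in control.

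Of the 10 members with H3K27ac in both treatments, 4 had a longer cover in crotonate, against 29.6% of all such genes, and 6 a shorter one, against 70.3%. Prrx1 had 6638 bp in crotonate and 8088 bp in control, and Runx2 had 2450 bp in crotonate and 3641 bp in control. Foxa3 had 1598 bp in crotonate and 2163 bp in control, Tbx6 had 4592 bp in crotonate and 4413 bp in control, and Foxc1 had 2162 bp in crotonate and 2402 bp in control. An increase of at least 1.5-fold was found at 2 members, against 5.07% of all such genes. They were Runx1, with 1366 bp in crotonate and 730 bp in control, and Sox7, a factor of endothelium, with 668 bp in crotonate and 301 bp in control. A decrease of that size was found at none, against 12% of all such genes. The summed length was 24.7 kb in crotonate and 26.9 kb in control, a ratio of 0.921, and the ratio over all genes was 0.896. With the stronger 50% of each list the members' ratio turned to 1.02. Of 30 H3K27ac peaks at members in crotonate 12 had no partner in control (40%, 22.7 to 59.4), against 31.1%, and of 29 in control 12 had none in crotonate (41.4%, 23.5 to 61.1), against 23.1%.

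Prrx1 differed from most members in several ways. Its H3K27ac cover was the longest of all members in both treatments, its H3K4me3 cover was the only one that was shorter in crotonate among those present in both, and its H3K27me3 cover fell by the most. Its promoter carried H3K4me3, H3K9cr and H3K27ac in both treatments, and H3K27me3 in control only. H3K27me3 at Prrx1 was called as 5 peaks in crotonate and 1 in control. In crotonate the promoter (163313601 to 163313900) lay in a gap between peaks, from 163313375 to 163314340.

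The pattern was compared with 3 other lists of transcription factors. Among 56 other mesoderm factors H3K4me3 was gained at 6 (10.7%; the strongest of these peaks were at Scx, Nkx2-6 and Etv2) and its cover was at least 1.5-fold longer at 12 of 40 with it in both treatments (30.0%). Among 34 other endoderm factors it was gained at 2 (5.88%; Mnx1 and Nkx6-1) and 1.5-fold longer at 4 of 25 (16%). Among 39 factors of forebrain progenitors it was gained at 1, Six6 (2.56%), and 1.5-fold longer at 1 of 38, Neurog2 (2.63%). The summed H3K27me3 cover gave a ratio of 1.05 over the other mesoderm factors, 1.01 over the other endoderm factors and 0.873 over the forebrain factors. H3K27me3 was lost at 6 forebrain factors (with the strongest control peaks at Olig2 and Sox3) and at 3 other mesoderm factors (Hes7, Sall1 and Zeb2), and at no member. The lists differ in how much H3K27me3 they carried in control, and differences between them were not tested.

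**Figure D5:**
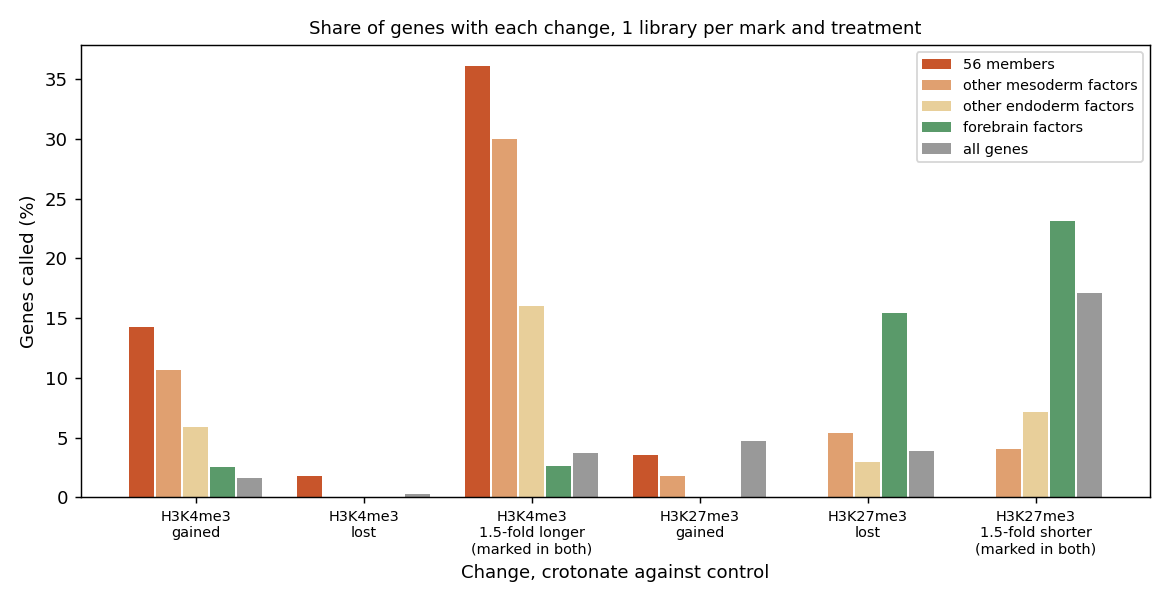
Share of genes (%) with each change of H3K4me3 or H3K27me3 in crotonate against control, in the 56 members, other mesoderm factors, other endoderm factors, forebrain factors and all protein-coding genes, each with 1 library per mark and treatment. The members show 14.3% with gained H3K4me3 and 0 with lost H3K27me3, against 1.59% and 3.84% of all genes. All 843 genes with at least 10 kb of H3K27me3 in control kept it too.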

How the data were processed

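The submitters' processing notes name Bowtie2 2.4.1, MACS2 2.2.7.1 and the build GRCm38. How peaks were called and the inputs used is not given in the sources used here. All deposited lists have MACS2 columns per the file headers. The pileup is a coverage signal, the fold enrichment a ratio to local background, and the −log10 p-value and q-value belong to the summit, as the authors gave them. They served only to describe and rank peaks within a list.

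From these lists, covered length and overlaps (at least 1 bp) were computed in Python 3.11.15 with pandas 2.3.3, in windows of the RefSeq gene body plus 5 kb, for 21883 protein-coding genes. Overlap counting was checked on simulated peaks. Marks were compared between 1 crotonate and 1 control library each, with no test. Exact Clopper-Pearson intervals (95%) cover counting error only, and amplified reads that carry no molecular identifier are not independent.

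The members, gene lists, roles and rules were chosen with earlier results of these data known. Named members are those with a mark in 1 treatment only, the 5 largest and 5 smallest differences in covered length, and the 5 longest covers in control, per mark; others illustrate a count and were chosen after their values were seen. Other windows, stronger peaks, equal list lengths and stricter or looser sharing were tried.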

Additional observations from a re-analysis of the deposited data

How the results depend on the processing

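Gains and losses of each mark, summed length ratios, peak shares, the 1.5-fold H3K4me3 count and the overlap counts were recomputed with other windows, peak thresholds or list lengths, and peak shares also with other sharing rules. Of these 122 alternatives 87 kept the value close to that reported. Other values were not recomputed. The stronger 50% of each list by −log10 q left few peaks at the members. With it, H3K4me3 gains numbered 1 and losses 0, its length ratio was 1.97, 1 member passed 1.5-fold, the lost share was 0, and overlap with H3K27me3 was found at 2 members in crotonate and 1 in control. In the same setting the H3K9cr length ratio was 1.36 and its gained share 42.9%, and H3K27ac gains numbered 2 and losses 0, with a lost share of 0. The H3K27ac length ratio turned from 0.921 to 1.02, and the H3K27me3 gained and lost shares were 24.7% and 1.45%; the cause was not tested. Within 1 kb of the start sites, known for 33 members only, gains numbered 4 for H3K4me3, 1 for H3K9cr, 0 for H3K27ac and 1 for H3K27me3, losses 0 for H3K9cr and 3 for H3K27ac, and overlap of H3K4me3 with H3K27me3 was found at 23 members in crotonate and 19 in control. With 20 kb flanks, H3K4me3 losses, H3K9cr losses and H3K27me3 gains numbered 0, and 45.7% of H3K27me3 peaks were gained. With equal numbers of peaks the share of H3K27me3 peaks gained was 27.4%. Sharing of 50% of both peaks gave lost shares of 17.3% for H3K4me3 and 33% for H3K27me3 and a gained H3K27me3 share of 56.2%. Peaks within 1 kb counted as shared gave 25.3% gained and 1.94% lost for H3K27me3. In alternatives chosen after seeing the data, 24 members had H3K4me3 longer by at least 25% and 8 at least 2-fold longer. No paired analysis was possible because each mark and treatment had 1 library. Unknown depth and single libraries limit all comparisons, and peaks near the calling limit count as gained or lost.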
